A study of Mus musculus with 6 samples.

Results

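The genes described here are those of the major histocompatibility complex (MHC) and of the machinery that loads it with peptides: every gene whose symbol starts with H2-, together with B2m, Tap1, Tap2, Tapbp, Tapbpl, Psmb8, Psmb9, Psmb10, Psme1, Psme2, Erap1, Nlrc5, Ciita and Cd74. The rule, which uses names and no measured value, found 59 of the 55487 gene IDs in the deposited files, 45 of them with an H2- symbol. They were followed in RNA of the left ventricle of 8-week-old male C57BL/6 wild-type mice in 2 groups of 3 libraries each. ET mice received a 5% ethanol diet for 10 days and then 1 gavage of ethanol, and their labels give the disease state as alcoholic cardiomyopathy. CONT mice received an isocaloric diet for the same 10 days and then 1 gavage of maltose-dextrin. All hearts were taken 9 h after the gavage, so the short diet plus the single binge (the NIAAA model) is what the ET group stands for, and diet and gavage cannot be told apart. The labels do not say whether a library is 1 mouse, so p-values measure the spread between these libraries, which may be in part technical.

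MHC class I molecules present peptides from inside the cell to CD8 T cells. A heavy chain, in mice the classical H2-K1 and H2-D1 or one of many nonclassical genes, pairs with the light chain beta-2 microglobulin (B2m). The proteasome cuts the peptides, Tap1 and Tap2 carry them into the endoplasmic reticulum, and tapasin (Tapbp) and Erap1 help to load and trim them. MHC class II molecules present peptides from outside the cell to CD4 T cells on macrophages, dendritic cells and B cells, with Cd74, the invariant chain, as their chaperone. Nlrc5 is the transactivator of class I genes and Ciita that of class II genes, and interferon gamma induces both pathways. In the heart, class I is known from endothelial and other non-muscle cells and class II from resident macrophages and dendritic cells.

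The promoters of these genes carry known elements: in class I an NF-kB site and an interferon response element upstream of an X and Y box module, in class II the X and Y boxes. Promoter windows of 300 bases (250 before and 50 after the start, RefSeq, build GRCm38.p6) matched 41 of the 59 genes and 22 of the 30 that averaged at least 1 TPM. The 5 windows printed show elements of the class I and class II arrangements and the stretch that Tap1 and Psmb9 have in common. Capitals mark matches, on either strand, to the kB site GGGATTCCC, the interferon response motif GAANNGAAA, the X box core AGCAAC and the Y box CCAATCA. Of the class I and class II windows printed, only that of H2-Eb1 held a match to the X box core. H2-K1, H2-D1 and H2-Aa held no exact match to its letters, and matches with a changed letter were not searched. In H2-K1 the Y box lay after the start used here, which was 1 of 2 annotated starts of that gene. The first pair are the classical class I genes H2-K1 (chr17:34000298-34000597, minus strand) and H2-D1 (chr17:35262844-35263143, plus strand). The next pair are the class II genes H2-Eb1 (chr17:34305617-34305916, plus strand) and H2-Aa (chr17:34287774-34288073, minus strand). The last is the window of Tap1 (chr17:34187306-34187605, plus strand), which overlaps that of Psmb9 on the opposite strand (chr17:34187281-34187580).
H2-K1: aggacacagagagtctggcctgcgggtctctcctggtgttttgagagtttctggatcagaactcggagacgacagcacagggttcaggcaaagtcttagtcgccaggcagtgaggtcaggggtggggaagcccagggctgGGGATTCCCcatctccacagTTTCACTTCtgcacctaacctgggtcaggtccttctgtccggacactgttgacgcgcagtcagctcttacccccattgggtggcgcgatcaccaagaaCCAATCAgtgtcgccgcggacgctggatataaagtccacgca
H2-D1: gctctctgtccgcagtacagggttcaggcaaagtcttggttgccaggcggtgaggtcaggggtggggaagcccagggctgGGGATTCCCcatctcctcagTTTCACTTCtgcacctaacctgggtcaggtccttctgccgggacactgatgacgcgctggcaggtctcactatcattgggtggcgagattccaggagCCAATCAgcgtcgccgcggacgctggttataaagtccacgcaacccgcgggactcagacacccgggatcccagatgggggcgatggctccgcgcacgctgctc
H2-Eb1: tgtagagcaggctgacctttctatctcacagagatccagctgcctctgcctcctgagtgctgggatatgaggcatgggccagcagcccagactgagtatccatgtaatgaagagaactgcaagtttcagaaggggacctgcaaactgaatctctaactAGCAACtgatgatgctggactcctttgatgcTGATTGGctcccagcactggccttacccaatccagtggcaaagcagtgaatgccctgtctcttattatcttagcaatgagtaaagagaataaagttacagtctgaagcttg
H2-Aa: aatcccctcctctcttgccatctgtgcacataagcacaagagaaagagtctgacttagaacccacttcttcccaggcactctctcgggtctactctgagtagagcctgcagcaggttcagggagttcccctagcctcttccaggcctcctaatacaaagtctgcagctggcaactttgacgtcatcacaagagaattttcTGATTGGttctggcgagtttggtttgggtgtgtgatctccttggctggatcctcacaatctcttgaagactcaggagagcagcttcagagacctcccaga
Tap1: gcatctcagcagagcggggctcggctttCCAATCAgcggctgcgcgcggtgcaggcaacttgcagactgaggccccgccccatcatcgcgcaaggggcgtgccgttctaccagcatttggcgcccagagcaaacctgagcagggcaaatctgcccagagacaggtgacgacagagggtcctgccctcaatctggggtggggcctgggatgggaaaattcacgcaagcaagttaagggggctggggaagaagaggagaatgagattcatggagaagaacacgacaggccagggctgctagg

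In H2-K1, H2-D1 and H2-Q6 the interferon motif, read as TTTCACTTC on the printed strand, began 20 bases after the start of the kB site, and in H2-Q7 19 bases after it. The Y box began 97 bases after the interferon motif in H2-D1, H2-Q6 and H2-Q7 and 98 bases after it in H2-K1 and H2-Q4. In the class II genes that held it the Y box lay in the opposite orientation. It began 31 bases after the X box core in H2-Eb1 and H2-Eb2, 29 in H2-Ob and 32 in H2-Oa. Among the 22 genes over 1 TPM with a window, 12 held the Y box (54.5%), 7 the interferon motif (31.8%), 4 the kB site (18.2%), 3 the X box core (13.6%) and 2 the interferon gamma activated site TTCNNNGAA (9.09%). Over all 32851 promoters of the table the shares were 7.82%, 7.52%, 0.353%, 14.8% and 8.3% in the same order of motifs. H2-T23 and H2-M3 held their X box core after the start. The motifs do not overlap in the windows shown, and a match is a description of letters, not a measured binding site.

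B2m, H2-K1 and H2-D1 had the highest means of the 59 over the 6 libraries (the plot of TPM by gene). TPM, the deposited measure of transcript abundance, is corrected for gene length and allows levels of different genes to be set side by side. B2m had 299.2, 172.1 and 106.6 TPM in the ET libraries 1 to 3, against 259.8, 321.2 and 173 TPM in the CONT libraries 1 to 3. H2-K1 had 159.7, 101.1 and 64.61 TPM in ET, against 147.5, 182.5 and 103.7 TPM in CONT. H2-D1 had 131, 79.44 and 52.94 TPM in ET, against 103.5, 118.3 and 72.58 TPM in CONT. For all 3 genes the ET and CONT ranges overlapped, with ET 3 lowest. B2m stood in a nearly fixed ratio to its partners: 1.029, 0.953 and 0.907 times the sum of H2-K1 and H2-D1 in ET, against 1.035, 1.068 and 0.981 times in CONT.

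**Figure D1:**
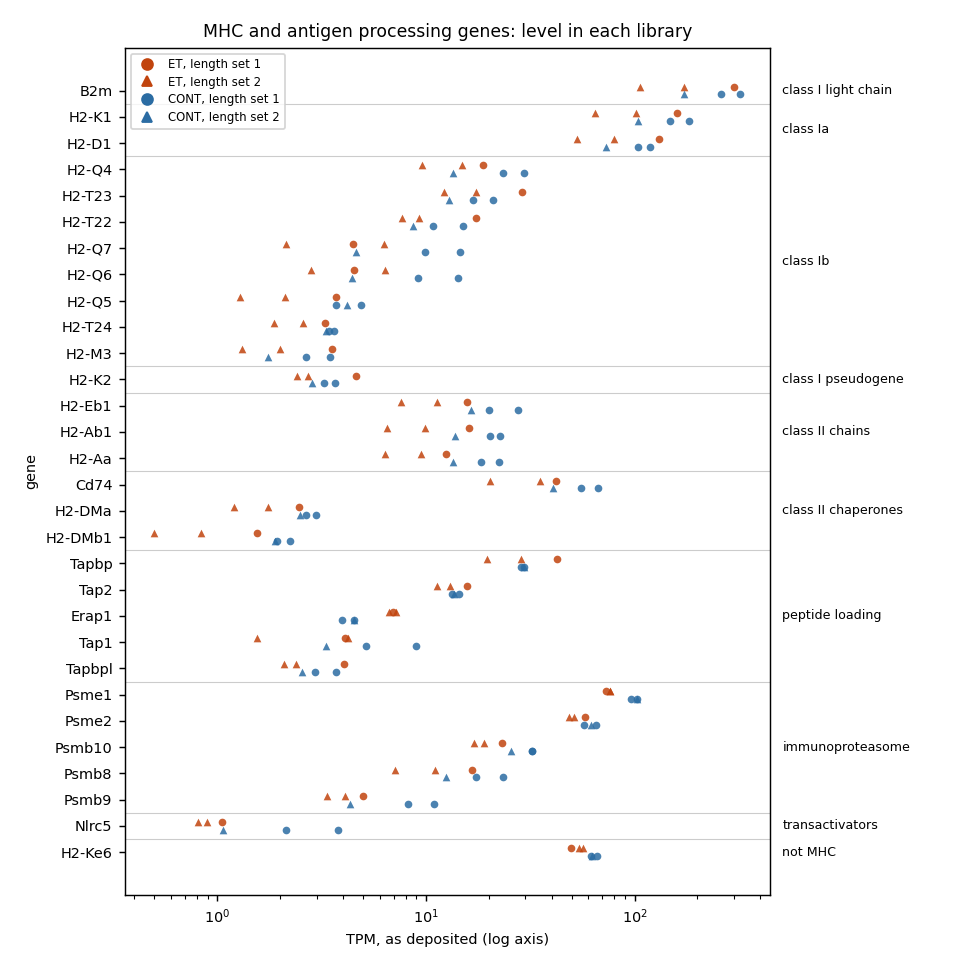
TPM (log axis) of the 30 genes that averaged at least 1 TPM, 1 point per library, ET above CONT for each gene, with circles and triangles for the library sets 1 and 2 described in the text. B2m, H2-K1 and H2-D1 have the highest means, and the 3 class II chains H2-Eb1, H2-Ab1 and H2-Aa lie between 6.4 and 27.64 TPM.

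Next by that mean came the proteasome activator subunit Psme1 (75.3 ± 1.75 TPM in ET and 100.4 ± 4.07 in CONT, SD, n = 3 each). H2-Ke6, described below, followed with 53.5 ± 3.76 TPM in ET and 63.6 ± 2.44 in CONT. Then came the other activator subunit, Psme2 (52.6 ± 4.88 and 61.4 ± 4.23). In CONT alone Psme1 stood slightly above H2-D1 (98.1 ± 23.3 TPM), within the spread of H2-D1. Cd74 averaged 32.5 ± 11.1 TPM in ET and 54.4 ± 13 in CONT. The class II chains H2-Eb1, H2-Ab1 and H2-Aa averaged 11.5, 10.8 and 9.44 TPM in ET, against 21.4, 18.9 and 18.1 TPM in CONT. These 3 lay within each other's spread in each group. Among the nonclassical class I genes H2-Q4 (14.4 TPM in ET, 22.2 in CONT) and H2-T23, which encodes Qa-1 (19.5 TPM in ET, 16.9 in CONT), were highest.

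Of the remaining 29 genes, 14 had counts but averaged from 0.00167 to 0.71 TPM, and 15 had no count in any library. Ciita averaged 0.173 TPM in ET and 0.210 TPM in CONT. The 15 without a count include the H2-M10 genes, H2-M1, H2-M2, H2-M11 and H2-T3. A count of 0 allows up to 0.0794 to 0.104 CPM (counts scaled to the library size) per library for counting error alone. H2-Ea-ps is among them, and C57BL/6 mice are known to lack expression of this class II alpha chain, so that no I-E protein is made although H2-Eb1 RNA is. H2-Ke6, which the rule takes in by name, encodes a hydroxysteroid dehydrogenase and not an MHC molecule. It shares 86.4% of its exon bases with another annotated gene on the same strand.

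The question of the design was how ethanol feeding with a binge changed the ventricle. Counts were compared by the quasi-likelihood test of edgeR, and p was adjusted (Benjamini-Hochberg) over the 15727 genes that passed a filter on low counts. Of the 59 genes 35 passed that filter, all 30 over 1 TPM and 5 below it. None of the 35 passed an adjusted p of 0.05 (0% of all genes did), and their adjusted p ran from 0.4515 to 0.9967. The log2 fold change was nevertheless below 0, that is lower in ET, for 34 of the 35, against 48.1% of all genes tested. At an unadjusted p of 0.05 18 of the 35 were lower in ET (4.46% of all genes) and 0 higher. That 18 was 6 without CONT 2 and 11 without CONT 1. Over all genes 659 were higher and 701 lower at that p. For 14 of the 35 every ET library lay below every CONT library in scaled CPM (8.36% of all genes), and for 0 the reverse. Of these 14, H2-Ab1, Cd74, H2-Q5, Psmb9 and Psme2 overlapped in TPM. The median log2 fold change was −0.65 over the 35 and 0.01 over all genes. DESeq2's Wald test, run as an alternative, called 184 genes, and 4 of the 35 were among them: H2-Aa, H2-Eb1, Nlrc5 and Psmb10, all lower in ET (0.502% of all genes were called lower). In bulk tissue, fewer cells of a type and less RNA per cell cannot be told apart.

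**Figure D2:**
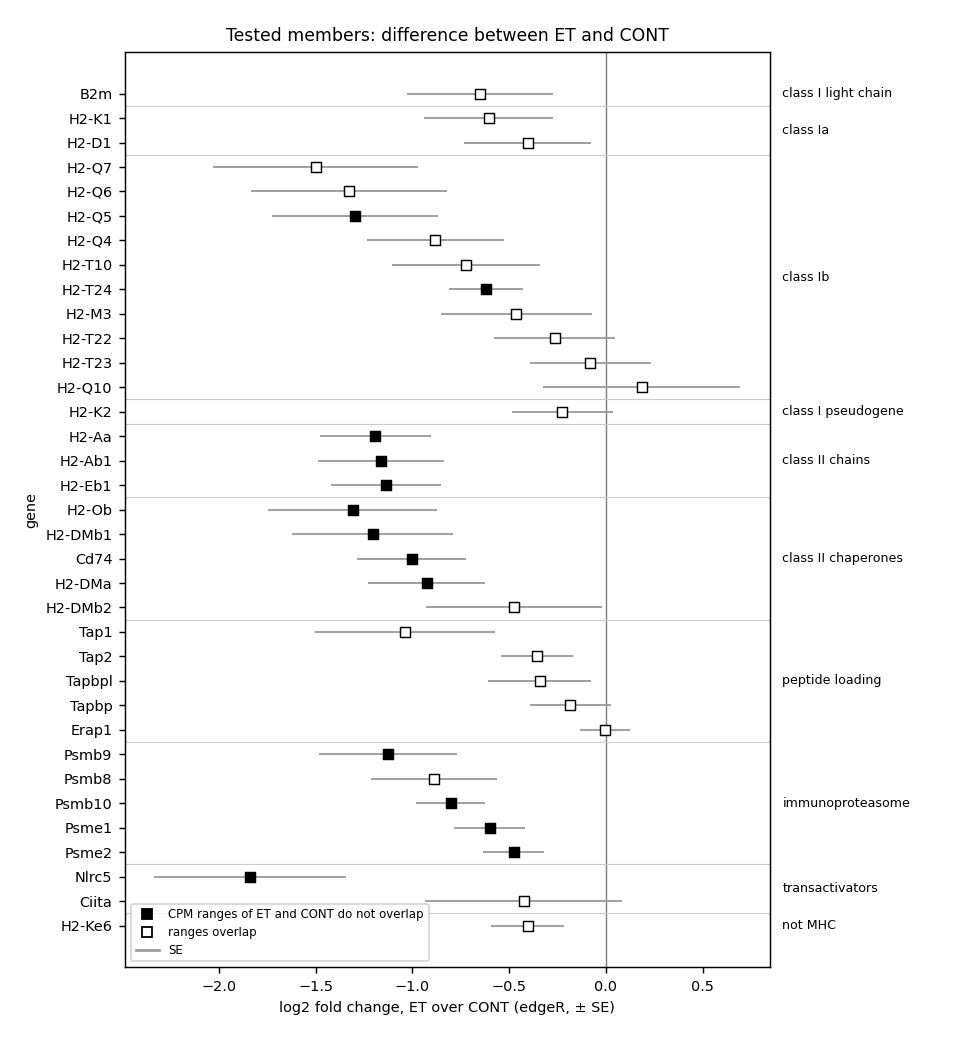
Log2 fold change, ET over CONT, with its SE for the 35 tested genes, grouped by role. Filled squares mark the 14 genes whose ET libraries all lie below their CONT libraries in scaled CPM, 7 of which are class II chains and chaperones.

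The class II genes had negative log2 fold changes, and none passed the adjusted threshold. All 8 tested class II chains and chaperones had a negative log2 fold change, and their median was −1.15. Of the 8, 7 had an unadjusted p under 0.05 (4.46% of all genes were lower at that p). In scaled CPM 7 were lower without overlap (8.36% of all genes). In TPM the groups overlapped for H2-Ab1, Cd74 and the sum of the 3 chains, where ET 1 (44.29 TPM) lay above CONT 3 (43.66 TPM). H2-Aa, the alpha chain of I-A, had 11.01, 9.20 and 6.87 CPM in the ET libraries, against 21.1, 27.2 and 13.6 CPM in the CONT libraries, with a log2 fold change of −1.19 ± 0.28 (SE). Its partner beta chain H2-Ab1 had 12.8, 8.29 and 6.41 CPM in ET, against 22.6, 25.6 and 13.2 CPM in CONT, at −1.16 ± 0.33. The beta chain H2-Eb1, whose promoter is printed above, had 11.6, 9.32 and 7.10 CPM in ET, against 20.03, 27.6 and 14.02 CPM in CONT, at −1.14 ± 0.28. In all 3 the highest ET library, ET 1, stayed under the lowest CONT library, CONT 3.

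Cd74 showed the same order, with 40.2, 38.6 and 25.2 CPM in ET, against 71.8, 89.8 and 46.9 CPM in CONT, at −1.004 ± 0.284. It kept close to the sum of the 3 chains, at 0.948, 1.15 and 0.988 times that sum in TPM in ET, against 0.950, 0.916 and 0.935 times in CONT. H2-DMa and H2-DMb1 encode H2-M, which exchanges the invariant chain remnant for antigenic peptide, and were at −0.93 ± 0.30 and −1.20 ± 0.42. H2-Ob, part of H2-O, which restrains H2-M, was at −1.31 ± 0.44 but rests on 6 to 24 counts per library. H2-DMb2 was at −0.48 ± 0.45 with overlapping groups. The edgeR adjusted p of the 8 ran from 0.4778 to 0.7416. DESeq2 gave H2-Aa an adjusted p of 0.0259, where the other settings ranged from 0.0224 to 0.9992, and H2-Eb1 0.0389, within 0.0245 to 0.9992.

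Ciita, the class II transactivator, had 0.960, 0.706 and 0.358 CPM in ET, against 0.766, 1.42 and 0.562 CPM in CONT, at −0.42 ± 0.51. Its groups overlapped, and its 11 to 38 counts per library limit what could be seen. The genes of class II peptide processing outside the rule had log2 fold changes above 0 in 9 of 9 tested cases, with a median of 0.26 and 1 at an unadjusted p under 0.05. By the library sets described further on, their median was 0.60 in set 1, which holds ET 1, and −0.09 in set 2. In set 2, 4 of the 9 had every ET library below the single CONT library, as did 5067 of all 15727 genes tested. The gene with the unadjusted p under 0.05 was Ctsl, a lysosomal cysteine protease, with 167.7, 150.7 and 171 CPM in ET, against 105.9, 115.6 and 114.4 CPM in CONT, at 0.54 ± 0.14 (edgeR adjusted p 0.4778). Ctsh was at 0.49 ± 0.21 and Ctss, the protease that degrades the invariant chain, at 0.26 ± 0.29.

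**Figure D3:**
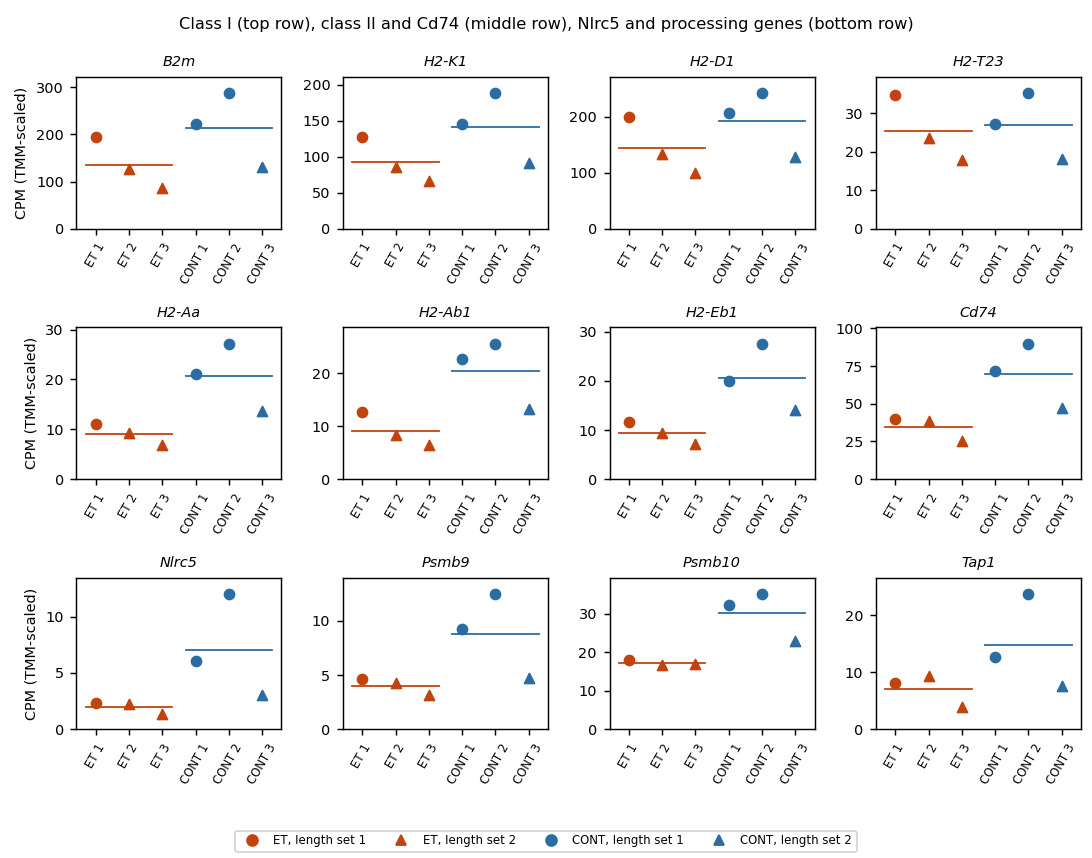
Scaled CPM in each library for 4 class I genes (top), 3 class II chains with Cd74 (middle), and Nlrc5 and 3 processing genes (bottom), ET left of CONT, lines at the group means. In the class II panels and Nlrc5, ET 1 (circle) lies below CONT 3 (triangle), while in the class I panels it lies above it.

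None of the class I chains passed the adjusted threshold, and the classes were not tested against each other in these counts. Of 14 tested class I chains, 13 had a log2 fold change below 0, and the median was −0.61. Of the 14, 5 were lower at an unadjusted p under 0.05 (4.46% of all genes) and 2 lower without overlap (8.36% of all genes). In scaled CPM H2-K1 had 127.7, 85.6 and 66.5 in ET, against 145.7, 188.1 and 92.1 in CONT, at −0.61 ± 0.33. H2-D1 was at −0.40 ± 0.33 and B2m at −0.65 ± 0.38, and for all 3 the library ET 1 lay above CONT 3. The sum of H2-K1 and H2-D1, which does not depend on how reads were split between the pair, was at −0.49 ± 0.34, and the sum of all H2 class I genes at −0.55 ± 0.34.

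The nonclassical genes spread widely around that value. H2-Q7 and H2-Q6, whose products are Qa-2 antigens and whose sequences are near-identical, were at −1.50 ± 0.53 and −1.33 ± 0.51, and their sum at −1.42 ± 0.52. That sum had 15.9, 24.6 and 9.44 CPM in ET, against 43.5, 71.1 and 19.2 CPM in CONT, so that ET 2 stood above CONT 3. H2-Q5 (−1.29 ± 0.43) and H2-T24 (−0.62 ± 0.19) were the class I genes without overlap in scaled CPM, while H2-Q4 was at −0.88 ± 0.35 with overlap. In TPM the groups overlapped for H2-Q5 too. H2-T10, H2-M3, H2-T22 and the pseudogene H2-K2 were between −0.72 and −0.22. Values of single class I genes are uncertain where the counting could assign reads to a close copy, and for 8 tested genes of the 59 an antisense gene covers over 10% of the exons, among them H2-T22 (29.4%), H2-T10 (27.1%) and H2-Q4 (19.1%).

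H2-T23, whose product Qa-1 presents signal peptides of other class I molecules to NK cell receptors, was at −0.08 ± 0.31, with 34.9, 23.5 and 17.9 CPM in ET, against 27.3, 35.2 and 18.2 CPM in CONT, and its sign turned with library totals as scaling (0.081). H2-Q10, a secreted class I molecule known from liver, was the 1 tested gene of the 59 above 0 in this fit, at 0.19 ± 0.51, with −0.54 to 0.53 over the other settings. It had 0.44, 0.16 and 1.42 TPM in ET, against 0.35, 0.32 and 0.39 TPM in CONT. The library with the high value, ET 3, also had 54.46 TPM of the summed 6 hepatocyte markers (Alb, Apoa1, Apoa2, Ttr, Serpina1c, Fgb), against 0.73 to 5.6 TPM in the other 5 libraries. The part of these transcripts in the value was not tested.

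The balance between the 2 classes within each library did not overlap between the groups (the plot of ratios). The 3 class II chains summed to 11.6, 12.49 and 12.74% of the class I heavy chains in TPM in ET, against 17.37, 17.71 and 18.67% in CONT. The means were 12.3 ± 0.603% and 17.9 ± 0.673% (SD, n = 3 each), the groups did not overlap, and the exact two-sided permutation p was 0.1, the smallest that 3 against 3 libraries can give. This ratio does not move with library scaling, and its libraries kept to their group although the class I sum itself ran from 160.8 to 381.9 TPM in ET and from 233.9 to 411.6 TPM in CONT. H2-T23 stood the other way, at 7.60, 7.05 and 7.60% of the class I heavy chains in ET, against 5.01, 5.12 and 5.50% in CONT (exact permutation p 0.1, smallest possible 0.1). H2-K1 was 1.22, 1.27 and 1.22 times H2-D1 in TPM in ET, against 1.43, 1.54 and 1.43 times in CONT (exact permutation p 0.1, smallest possible 0.1). These 3 ratios are among 24 sums and ratios, some of them variants of each other, that were chosen after values were seen and of which 9 gave a p of 0.1, and 3 against 3 libraries cannot reach 0.05 in any of them.

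**Figure D4:**
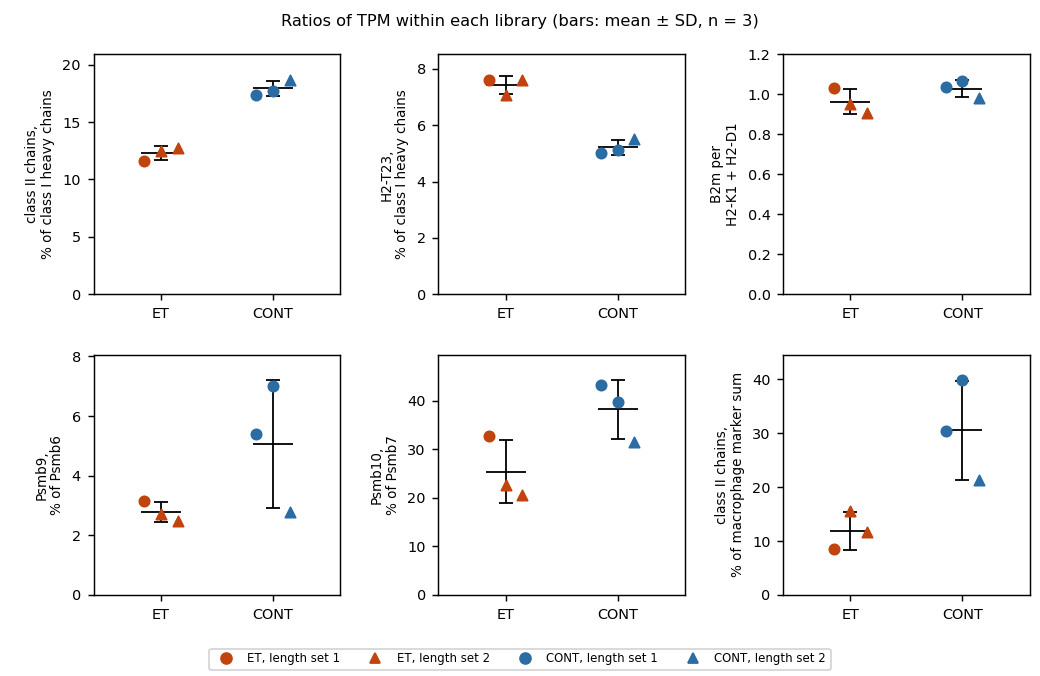
Ratios of TPM in each library, ET left of CONT, with mean ± SD of 3 libraries. The class II share of class I sits between 11.6 and 12.74% in ET and between 17.37 and 18.67% in CONT, and the H2-T23 share lies higher in ET than in CONT without overlap.

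The immunoproteasome genes were lower in ET, without passing the adjusted threshold. Psmb8, Psmb9 and Psmb10 encode the catalytic subunits that replace Psmb5, Psmb6 and Psmb7 in cells exposed to interferon. With the activator subunits Psme1 and Psme2, all 5 tested genes had a negative log2 fold change and an unadjusted p under 0.05. In scaled CPM 4 were lower without overlap (8.36% of all genes), and the median log2 fold change was −0.80. In TPM the groups also overlapped for Psmb9 and Psme2. Psmb10 had 17.97, 16.84 and 16.99 CPM in ET, against 32.2, 35.2 and 22.9 CPM in CONT, at −0.80 ± 0.18. It had the lowest p of the 59 genes (edgeR adjusted p 0.4515, DESeq2 0.0267, 0.0220 to 0.9992 over the other settings). Psmb9 was at −1.13 ± 0.36 and Psmb8 at −0.89 ± 0.33. Psme1 had 49.8, 65.2 and 73.6 CPM in ET, against 95.3, 103.8 and 86.8 CPM in CONT, at −0.60 ± 0.18, and Psme2 was at −0.48 ± 0.16.

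The constitutive subunits were also below 0, with Psmb5 at −0.36 ± 0.16, Psmb6 at −0.25 ± 0.14 and Psmb7 at −0.17 ± 0.19. Psmb10 was 32.7, 22.8 and 20.6% of Psmb7 in TPM in ET, against 43.4, 39.7 and 31.6% in CONT, with overlap at ET 1 (exact permutation p 0.2, smallest possible 0.1). Psmb9 was 3.142, 2.702 and 2.47% of Psmb6 in ET, against 5.39, 7.02 and 2.79% in CONT, again with overlap (exact permutation p 0.2, smallest possible 0.1). Psmb8 was 19.8, 13.7 and 9.14% of Psmb5 in ET, against 19.4, 24.4 and 14.6% in CONT, with ET 1 above CONT 1 (exact permutation p 0.3, smallest possible 0.1). Among 15 tested genes of class I assembly and peptide supply outside the rule, 11 were above 0 and 4 below, 0 at an unadjusted p under 0.05, with a median of 0.18.

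Peptide transport and loading genes did not pass an unadjusted p of 0.05 in any of the 5 cases. Tap1, whose promoter window overlaps that of Psmb9, was at −1.04 ± 0.46, with 8.19, 9.29 and 3.97 CPM in ET, against 12.7, 23.8 and 7.66 CPM in CONT. Tap2 (−0.36 ± 0.19), the tapasin-related Tapbpl (−0.34 ± 0.27) and Tapbp (−0.18 ± 0.21) were closer to 0. Erap1 was at −0.003 ± 0.128 in the count test. In TPM it stood higher in ET without overlap, at 6.98, 7.20 and 6.63 TPM in ET, against 4.52, 3.95 and 4.55 TPM in CONT. Cast, on the other strand, covers 11.5% of the exons of Erap1. TPM divides by an effective gene length that the authors' software estimated per library, and in TPM the median log2 difference over all genes stood at 0.15 (pseudocount 1). The log2 ratio of ET to CONT means of Erap1 was 0.68 in TPM and −0.003 in scaled CPM, a larger shift than that median. Its cause was not tested.

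Nlrc5 had the largest negative log2 fold change of the tested genes here, −1.84 ± 0.50. It had 2.29, 2.21 and 1.40 CPM in ET, against 6.103, 12.02 and 3.077 CPM in CONT, from 43 to 321 counts per library. DESeq2 gave it an adjusted p of 0.0312, where edgeR gave 0.4778. The DESeq2 value was the lowest of the alternatives, which ranged up to 0.9992. The groups did not overlap, CONT 2 stood far above the other CONT libraries, and without it the log2 fold change was −1.22. Of 23 tested genes of MHC transcription and interferon signalling outside the rule, 10 were above 0 and 13 below, 0 at an unadjusted p under 0.05, with a median of −0.10. Among those with the lowest p were Jak2, a kinase of interferon receptors (0.30 ± 0.14), and the Y box factor subunit Nfyc (−0.23 ± 0.11). Ifng itself had no count in any library.

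Genes known to be induced by interferon gamma leaned the same way as the 59: 13 of 14 tested were below 0, 3 at an unadjusted p under 0.05, with a median of −0.85. The chemokine gene Cxcl9 had 1.41, 1.06 and 1.11 CPM in ET, against 5.56, 7.04 and 1.75 CPM in CONT, at −1.995 ± 0.502. Cd274, which encodes the checkpoint ligand PD-L1, was at −1.33 ± 0.41 and the GTPase gene Gbp4 at −1.74 ± 0.59. Type I interferon targets were 9 of 11 below 0, 0 at an unadjusted p under 0.05, with a median of −0.37. Class I-like molecules outside the H2 complex were 5 of 5 above 0 with a median of 0.20, and T and NK cell receptors and costimulators 5 of 6 above 0 with a median of 0.11.

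Libraries of the same group also differed from each other in these genes. CONT 2 was the highest library for 30 of the 35 tested genes and ET 3 the lowest for 28. Over all genes CONT 2 was highest in 16.1% and ET 3 lowest in 25.5%. The libraries were also split into a pair of sets by the sign of the first principal component of estimated effective gene length. Set 1 holds ET 1, CONT 1 and CONT 2, and set 2 holds ET 2, ET 3 and CONT 3, so the sets cross the groups. The scores were spread rather than in tight clusters. They were 0.503 for CONT 2, 0.439 for CONT 1 and 0.2 for ET 1. In set 2 they were −0.188 for CONT 3, −0.368 for ET 2 and −0.586 for ET 3, so ET 1 and CONT 3 lay nearest the cut. Set 2 lay wholly below set 1 for 12 of the 35 (14.1% of all genes), for 8 of the 14 class I chains and for 0 of the 8 class II genes. Within set 1 the class II median was −0.96 and within set 2 −0.81, against −0.39 and −0.12 for class I chains, −0.91 and −0.34 for immunoproteasome and activator genes, and −0.93 and −0.01 for interferon gamma targets. In both sets every ET library lay below every CONT library for 17 of the 35 (15% of all genes): 7 of 8 class II genes, all 5 immunoproteasome and activator genes, H2-K1, B2m, H2-Q5, H2-T24 and Nlrc5. With 1 ET library in set 1 and 1 CONT library in set 2, these within-set values have no test of their own. Those single libraries, ET 1 and CONT 3, are also the pair that stood apart in atrial markers, given below. All within-set values, those of the markers included, rest on them.

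**Figure D5:**
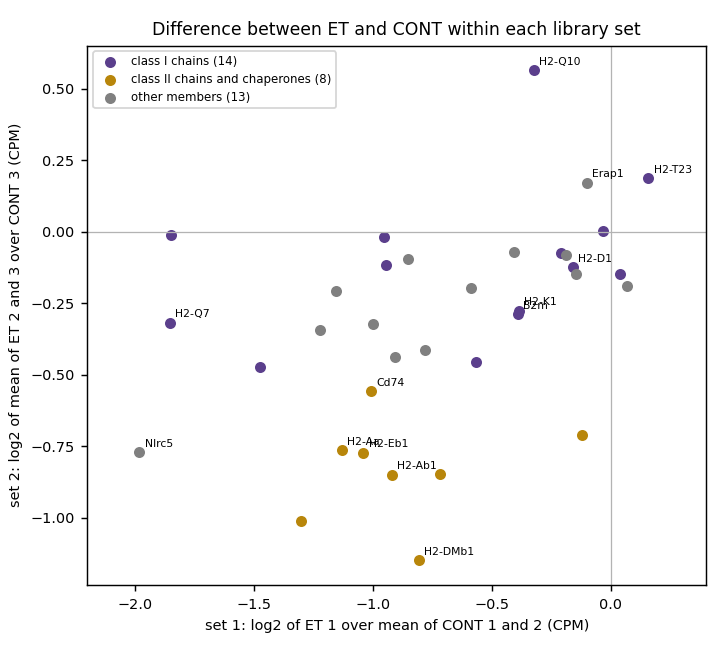
Log2 ratio of ET to CONT in scaled CPM within set 1 (horizontal axis) and set 2 (vertical axis) for the 35 tested genes. Class II genes lie low on both axes, while most class I chains lie near 0 on the set 2 axis. ET is the library ET 1 alone in set 1, and CONT is CONT 3 alone in set 2.

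Marker genes of other cells were read beside the class II result. The 10 macrophage markers summed to 524.2, 197.5 and 174.5 TPM in ET, against 192, 183 and 203.9 TPM in CONT, and all 10 had a log2 fold change above 0 (median 0.39, 1 at an unadjusted p under 0.05). Within set 1 that median was 1.01 and within set 2 −0.09. The class II chains were 8.45, 15.5 and 11.8% of that sum in ET, against 30.5, 39.8 and 21.4% in CONT, without overlap (exact permutation p 0.1, smallest possible 0.1). As a share of 6 pan-leukocyte markers they were 98.5, 161 and 105.7% in ET, against 261.7, 345.8 and 190.5% in CONT (exact permutation p 0.1, smallest possible 0.1). Dendritic cell markers summed to 3.29 to 6.59 TPM in ET and 4.94 to 6.06 TPM in CONT, with 4 of 9 tested and all 4 below 0. Most of that sum came from Zbtb46 alone, with 2.07 to 3.67 TPM in ET and 2.82 to 3.66 TPM in CONT. B cell markers summed to 1.86 to 9.05 TPM in ET and 3.81 to 6.83 TPM in CONT, with 3 of 8 tested and all 3 below 0. No marker of these lists was at 0 in all libraries, and the part of these cells in the class II values was not tested. T cell markers summed to 1.01 to 6.54 TPM in ET and 2.46 to 3.1 TPM in CONT, and NK cell markers, of which 0 of 6 passed the count filter, to 0.2 to 0.25 TPM in ET and 0.31 to 0.71 TPM in CONT. Neutrophil markers summed to 4.55 to 93.71 TPM in ET and 1.73 to 14.52 TPM in CONT.

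Beside class I, the 8 endothelial markers summed to 489.2, 356.4 and 216.9 TPM in ET, against 438.2, 400.8 and 278 TPM in CONT, with 7 of 8 below 0 (median −0.31). B2m was 61.2, 48.3 and 49.2% of that sum in ET, against 59.3, 80.2 and 62.2% in CONT, with overlap (exact permutation p 0.2, smallest possible 0.1). The 8 cardiomyocyte markers summed to 36270 to 45800 TPM in ET and 48930 to 51660 TPM in CONT. Of these 8 markers, 7 were below 0 (median −0.43, 1 at an unadjusted p under 0.05). In scaled CPM 3 were lower without overlap (8.36% of all genes). The 7 fibroblast markers summed to 932.5, 358.6 and 266.3 TPM in ET, against 279.2, 243.7 and 296.1 TPM in CONT, with 7 of 7 above 0 (median 0.61, 1 at an unadjusted p under 0.05). Within sets 1 and 2 the medians were −0.35 and 0.19 for endothelial, −0.90 and −0.17 for cardiomyocyte, and 1.56 and −0.04 for fibroblast markers. The part of these cells in the values of the 59 genes was not tested. A pair of libraries stood apart in the 5 atrial markers, ET 1 with 14450 TPM and CONT 3 with 2097 TPM, and the other 4 libraries had 72.37 to 471.3 TPM. Without both, edgeR called 13 of the 35 genes at an adjusted p under 0.05, all lower in ET (1.9% of 15714 genes were called lower): B2m, H2-K1, H2-D1, H2-Q4, H2-Aa, H2-Ab1, H2-Eb1, Cd74, H2-DMb1, Psmb8, Psmb9, Psmb10 and Nlrc5. The median of the 35 was then −1.06 and that of the class II genes −1.56. That comparison rests on 2 libraries per group, ET 2 and ET 3 of set 2 against CONT 1 and CONT 2 of set 1, so that group and library set cannot be told apart in it. With all libraries and a term for the sets, edgeR called 0 of the 35, and the medians were −0.51 for the 35 and −0.90 for the class II genes. The part of atrial tissue in the full comparison was not tested.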

How the data were processed

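Left ventricle RNA was sequenced in 3 ET and 3 CONT libraries from 1000 ng of total RNA as 75 bp paired reads, per the labels' protocols. STAR 2.7.0f, RSEM 1.2.31 and the build mm10 are named in the submitters' processing notes. Which annotation was used, and whether strand was, is not stated there. The authors deposited expected counts per gene, not normalized, with totals from 28838386 to 37762233 per library. The authors also deposited TPM and FPKM per library, per the file headers. FPKM served only to derive effective gene lengths (8090 genes with at least 200 counts), whose first principal component (48.1% of the variance) gave the library sets by its sign.

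Expected counts were rounded, filtered by filterByExpr (minimum count 10, minimum total 15), scaled by TMM (factors 1.19, 1.01 and 0.920 in ET, 0.968, 0.927 and 1.00 in CONT) and tested by edgeR 4.0.16 (robust quasi-likelihood, two-sided, Benjamini-Hochberg, threshold 0.05, R 4.3.3). CPM carries the TMM scaling. The biological coefficient of variation common to all genes came to 0.297. The SE is the log2 fold change divided by the square root of F. Alternatives used other scaling and filters, DESeq2 1.42.0, limma 3.58.1 on counts and on log2 TPM, a term for the library sets, and libraries left out. The fit was checked on simulated counts. Intervals from a count of 0 use 3 counts and cover counting error only. Gene positions, overlaps and 55394 of the 55487 IDs were found in GENCODE vM21 (GRCm38). Summaries used pandas 2.3.3 (Python 3.11.15), figures matplotlib 3.10.9.

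The genes, lists, motifs and alternatives were chosen with earlier results of these data known. Genes averaging 1 TPM or more are named; the 5 of lowest p and the 4 most abundant have each library's value, with a few others chosen after values were seen (Cd74, H2-T23, H2-Q10, Ciita, Tap1, Erap1, Psmb7 and the Q6 and Q7 sum). Of each partner list at most 3 genes of lowest p are named, and 1 gene that this rule picks is not reported here.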

Additional observations from a re-analysis of the deposited data

How the results depend on the processing

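The median of the 35 genes stayed below 0 in all 17 alternatives, from −0.44 to −1.06, and the class II, class I and immunoproteasome medians kept their sign as well. With a term for the library sets the class I median was −0.34, against −0.61 without it, and H2-D1 was at −0.14 and B2m at −0.34. No paired analysis was possible because the labels number no replicates and the numbers used here only name libraries in accession order. DESeq2 called 184 genes, 4 of them among the 35, and limma on log2(TPM + 0.1) called 2 genes. Without CONT 3 and ET 1 together, edgeR called 828 genes and 13 of the 35. Genes of the 35 that were lower at an unadjusted p under 0.05, 18 with all libraries, numbered 29 in that setting, 9 and 10 with limma on TPM (pseudocounts 1 and 0.1), and 6 to 23 when 1 library was left out, lowest without CONT 2 and 11 without CONT 1. The medians without CONT 3 and ET 1 were −1.057 for all 35 and −1.562 for class II. In that setting all ET libraries are of set 2 and all CONT libraries of set 1, so group and set cannot be told apart, and the set term gave −0.51 and −0.90 with 0 of the 35 called. Genes near 0 changed sign. Erap1 was at 0.0103 with RLE factors, 0.107 with library totals, 0.0144 without a filter, 0.0102 with DESeq2, 0.000317 with voom, 0.57 and 0.67 with TPM, 0.034 with the set term, and −0.067 to 0.074 when 1 library was left out. H2-T23 was at 0.081 with library totals, 0.14 and 0.14 with TPM, 0.17 with the set term, and −0.36 to 0.17 when 1 was left out. H2-T22 was −0.54 to 0.041 when 1 was left out, highest without CONT 2. Library totals moved the median of all genes to 0.12 and TPM to 0.15 and 0.18. The cause of these shifts was not tested. The ratio of ET to CONT means of the class II share of class I, 0.685, was 0.652 from expected counts and 0.687 over H2-K1 and H2-D1 alone, both chosen after seeing the data. Depth limits the genes under 1 TPM, such as H2-Ob and Ciita.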
